A study of Mus musculus with 8 samples.

Results

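The genes described here encode the enzymes and regulators of glycolysis and glycogen metabolism. They number 37 of the 32390 rows of a table of read counts and were picked by name: 18 enzymes of the glycolytic steps with the side enzymes *Fbp2* and *Gpd1*, 3 PFKFB regulators, 4 genes of glycogen synthesis, 5 of glycogen breakdown, and 5 glycogen-targeting phosphatase subunits and glycogen-bound proteins. *Gpi1* and *Gyg* stood in the table under their synonyms *Gpi* and *Gyg1*. Bulk RNA-seq had been run on gastrocnemius muscle of 4 controls, genotype *Nox4* fl/fl, and of 4 NOX4-deficient mice, genotype MckCre:*Nox4* fl/fl. All 8 were males of 21 months, and both groups carried floxed *Nox4* alleles. Only the NOX4-deficient mice carried the Cre transgene. Its promoter, from the gene of muscle creatine kinase, drives Cre in muscle fibers and also, at a lower level, in the heart. No group with Cre and intact *Nox4* was among these samples, so the effects of Cre and of *Nox4* deletion cannot be told apart.

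Glycolysis splits glucose into pyruvate, which lactate dehydrogenase can turn into lactate, and it is the main quick source of ATP in fast-twitch fibers such as those that fill most of the mouse gastrocnemius. Hexokinase, phosphofructokinase and pyruvate kinase are its controlled steps, and the PFKFB enzymes make and break down a fructose bisphosphate that activates phosphofructokinase. Muscle stores glucose as glycogen, built by glycogenin, glycogen synthase and branching enzyme from the UDP-glucose made by *Ugp2*, and broken down by glycogen phosphorylase, which phosphorylase kinase switches on. Subunits encoded by the *Ppp1r3* genes bring a protein phosphatase to the glycogen particle, where it favors synthesis.

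Of the 37 genes, 2 fell in NOX4-deficient muscle (*Ugp2* and *Pfkfb4*), 1 rose (*Gpd1*), and 34 did not pass the test. The test was edgeR's quasi-likelihood F test over 12725 rows, and a call needed a Benjamini-Hochberg adjusted p below 0.05 together with a log2 fold change beyond 0.5 in either direction. The same 3 genes passed on the adjusted p alone (7.75% of all rows). All 37 passed the filter on low counts. Over all rows tested 6.16% were called, 3.48% lower and 2.68% higher, beside 8.11% of the 37 genes. The median log2 fold change of the 37 genes was 0.05, beside 0.01 over all rows, and their median absolute log2 fold change was 0.22, beside 0.20. The 4 NOX4-deficient libraries lay all above or all below the 4 control libraries in 6 of the 37 genes (16.2%), the same share as over all rows (16.2%). Of these 6, 2 were lower (8.97% of all rows) and 4 higher (7.2% of all rows). In homogenized muscle, fewer cells of a type and less RNA per cell cannot be told apart.

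**Figure D1:**
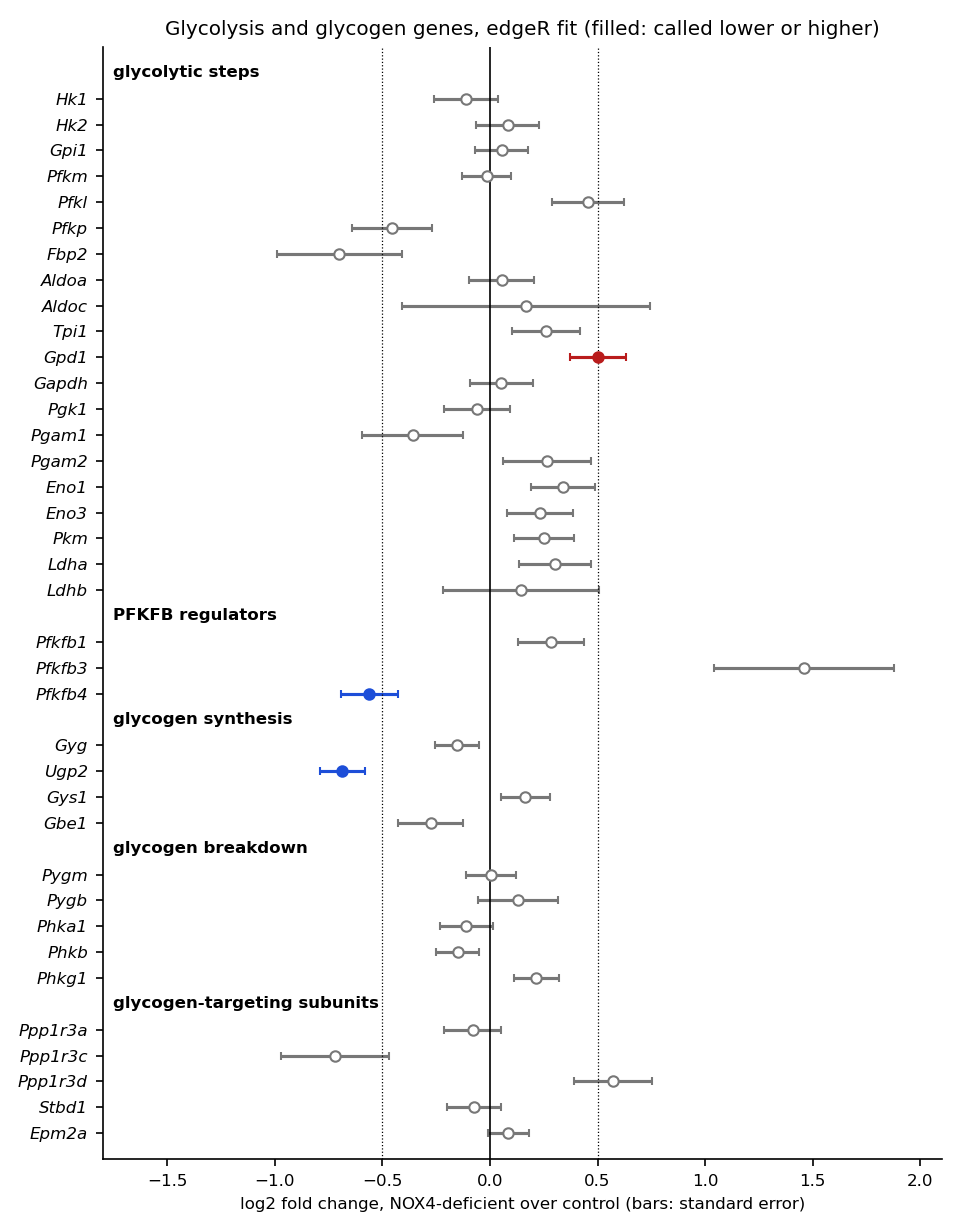
Log2 fold change of each of the 37 genes, NOX4-deficient against control, grouped by role. Bars are the SE from the edgeR fit (n = 4 libraries in each genotype), not the wider intervals given in the text. A bar that clears 0 does not mark a call. Filled points are the 3 genes called, *Ugp2* and *Pfkfb4* below 0 and *Gpd1* above it, and the widest displacement, *Pfkfb3* at 1.46, did not pass the test.

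The libraries held 16350548 to 19804661 counts. *Nox4* itself was scarce. Its level, in counts scaled to library size (CPM), was 1.87 to 5.09 in control and 1.74 to 2.21 in NOX4-deficient libraries, and did not pass the test (log2 fold change -0.65, SE 0.29, adjusted p = 0.207 by edgeR). Fast-fiber markers summed to 147783 to 180353 CPM in control and 157639 to 186225 CPM in NOX4-deficient libraries, with none of 13 called and 1 of 13 with a negative log2 fold change. Slow-fiber markers summed to 342 to 743 CPM and 454 to 1320 CPM, with 1 of 9 called, and all 9 had a positive log2 fold change. Hemoglobin and other blood markers were higher, at 47.6 to 52.7 CPM against 72.3 to 159 CPM, with 2 of 3 called. Adipocyte (6 genes), immune (7), endothelial (5), fibroblast and tendon (7), Schwann (4) and smooth muscle (3) markers had no gene called, but all 7 immune markers had a negative and all 4 Schwann markers a positive log2 fold change. The heart marker *Myh6* was at 29.3 CPM in control replicate 4, where the 2 heart markers summed to 31.2 CPM, against at most 0.938 CPM in the other libraries. Of 8 clock and fasting-responsive genes, 5 fell and 1 rose, and their summed level did not overlap between genotypes (3331 to 4564 CPM against 1085 to 1866 CPM). The part of these lists in the results that follow was not tested.

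The clearest change was in *Ugp2*, which encodes UDP-glucose pyrophosphorylase, the enzyme that supplies the glucose donor for glycogen. Its level was 1350, 1447, 1403 and 1474 CPM in control replicates 1 to 4, and 919, 861, 779 and 970 CPM in NOX4-deficient replicates 1 to 4. All 4 NOX4-deficient libraries were below the lowest control library, and the gap was wider than the range within either genotype. The means were 1418 ± 54.0 and 882 ± 82.0 CPM (SD, n = 4), so that the level fell by 37.8% (log2 fold change -0.69, SE 0.10, 95% interval -0.91 to -0.46, adjusted p = 0.00249 by edgeR). This was the smallest adjusted p-value of the 37 genes.

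The other 3 genes of glycogen synthesis did not pass the test. *Gys1*, the muscle glycogen synthase, was at 392, 416, 432 and 321 CPM in control and 435, 389, 451 and 476 CPM in NOX4-deficient libraries. The genotypes overlapped, and the log2 fold change of 0.16 had an interval of -0.09 to 0.41 (adjusted p = 0.433 by edgeR). *Gyg*, encoding the glycogenin that primes the particle, had a log2 fold change of -0.15, and *Gbe1*, encoding branching enzyme, one of -0.27. Together the 4 genes held 0.236 ± 0.00569% of all counts in control and 0.182 ± 0.0117% in NOX4-deficient libraries, and this share did not overlap between genotypes. *Ugp2* held more of these counts than any of the other 3 genes, and is itself part of the share, so this separation is not a further result. Mean levels of *Gys1*, *Gyg* and *Gbe1* were 390, 490 and 68.6 CPM in control muscle. In NOX4-deficient muscle they were 437, 441 and 56.8 CPM, and each of the 3 overlapped between genotypes.

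The sequences upstream of *Ugp2* and of the PFKFB genes described next are shown because *Ugp2* and *Pfkfb4* are the genes that fell and *Pfkfb3* had the largest fold change of the 37. They were read from the RefSeq promoter table (build GRCm38.p6), run 5′ to 3′ on the gene's strand, and end before the transcribed bases. Capitals mark matches to the hypoxia response core ACGTG and the E-box CACGTG on either strand. *Ugp2* and *Pfkfb3* each have another entry in that table, not shown, of which that of *Ugp2* held neither motif and that of *Pfkfb3* held 1 match to ACGTG and none to CACGTG. Motifs were searched in the full 250 bases before each start. The stretches printed for *Pfkfb3* and *Pfkfb4* are shorter, at 239 and 126 bases, because bases inside annotated exons were left off.
Ugp2, chr11:21371268-21371517, minus strand: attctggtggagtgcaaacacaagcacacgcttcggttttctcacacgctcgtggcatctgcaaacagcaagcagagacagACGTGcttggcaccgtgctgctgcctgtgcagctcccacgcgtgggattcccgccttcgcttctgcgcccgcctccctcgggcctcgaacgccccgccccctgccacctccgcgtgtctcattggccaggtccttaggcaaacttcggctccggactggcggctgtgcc
Pfkfb3, chr2:11502102-11502340, minus strand: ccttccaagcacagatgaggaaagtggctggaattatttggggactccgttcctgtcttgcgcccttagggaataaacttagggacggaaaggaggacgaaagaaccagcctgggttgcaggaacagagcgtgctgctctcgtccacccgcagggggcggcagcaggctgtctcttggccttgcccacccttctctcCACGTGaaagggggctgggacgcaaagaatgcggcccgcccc
Pfkfb4, chr9:108991652-108991777, plus strand: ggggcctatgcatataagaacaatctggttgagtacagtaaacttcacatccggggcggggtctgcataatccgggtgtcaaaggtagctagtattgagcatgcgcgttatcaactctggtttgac

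In the windows of the entries shown, *Ugp2* held 1 match to ACGTG, *Pfkfb3* held the palindrome CACGTG, which contains ACGTG on both strands, and *Pfkfb4* held neither in its 250 bases. Among the 36 genes with an entry, 15 (41.7%) had ACGTG within the 250 bases before a start, beside 18.5% of all 27025 genes in the table. CACGTG was found in 6 of them (16.7%, beside 6.86%), the antioxidant response element core TGACNNNGC in 5 (13.9%, beside 11.5%) and the MEF2 site in 3 (8.33%, beside 3.42%). Matches to CACGTG are also counted under ACGTG. Base composition was not matched in this comparison, and a match is not a site of binding. *Ugp2*, *Pfkfb3* and the glycolytic genes *Aldoa*, *Ldha*, *Pgk1*, *Pkm*, *Pfkm*, *Hk2* and *Pgam1* were among those with ACGTG. *Ppp1r3c* and *Fbp2* also had it, and genes with this motif lay on both sides of 0 in log2 fold change.

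The 3 PFKFB genes differed in direction. *Pfkfb4*, a bifunctional enzyme that sets the level of the activator of phosphofructokinase, was at 69.6, 66.4, 91.8 and 96.5 CPM in control and 48.4, 55.5, 57.9 and 58.0 CPM in NOX4-deficient libraries. The genotypes did not overlap, although the lowest control and the highest NOX4-deficient library were close. The means were 81.1 ± 15.3 and 54.9 ± 4.49 CPM (SD, n = 4), and the level fell by 32.2% (log2 fold change -0.56, SE 0.13, adjusted p = 0.0244 by edgeR). This call was lost without control replicate 3 or 4 or NOX4-deficient replicate 1 or 3, with adjusted p-values of 0.0812, 0.0703, 0.0654 and 0.0524 by edgeR.

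*Pfkfb3* encodes the family member with the highest kinase activity relative to its phosphatase activity. Its level was 69.2, 190, 273 and 189 CPM in control and 539, 724, 451 and 273 CPM in NOX4-deficient libraries. Control replicate 3 and NOX4-deficient replicate 4 were at nearly the same level, and the other 3 NOX4-deficient libraries were above every control. With means of 180 ± 83.9 and 497 ± 187 CPM (SD, n = 4), it had the largest fold change of the 37 genes (log2 fold change 1.46, SE 0.42, 95% interval 0.51 to 2.42) but did not pass the test (adjusted p = 0.0728 by edgeR). Its adjusted p-value was 0.0314 in an edgeR fit that was not robust, 0.0239 in DESeq2 and 0.0247 in pydeseq2. *Pfkfb1*, the form of liver and muscle, was at 36.3 to 44.6 CPM and 36.8 to 63.0 CPM (log2 fold change 0.28, adjusted p = 0.301 by edgeR).

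**Figure D2:**
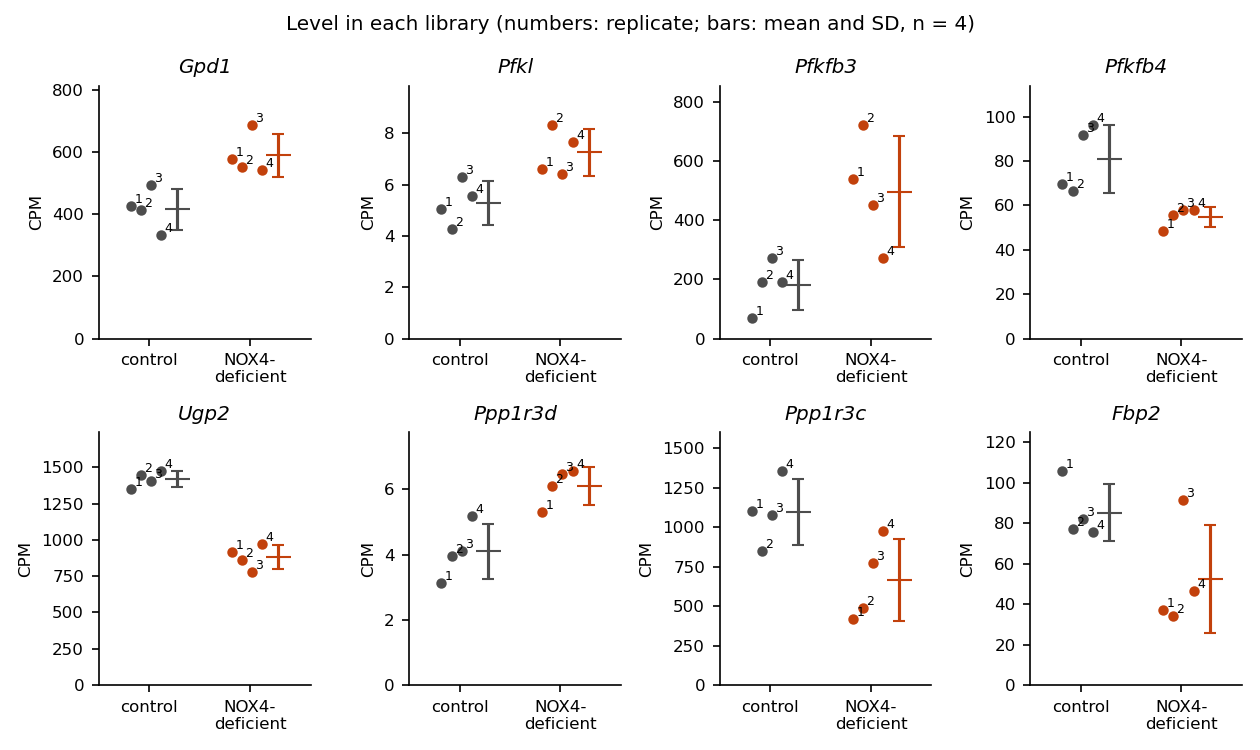
CPM of 8 genes in each library, with replicate numbers beside the points and the mean and SD of each genotype (n = 4) to the right. *Ugp2* is separated by a wide gap, *Pfkfb4* and *Gpd1* by narrow ones, and in *Fbp2* NOX4-deficient replicate 3 stands among the controls.

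The 20 genes of the glycolytic steps held most of the set's RNA, and only *Gpd1* among them passed the test. Of the 20, 14 had a positive and 6 a negative log2 fold change, and the median was 0.11. *Gpd1* encodes the cytosolic glycerol phosphate dehydrogenase, which draws a triose phosphate off glycolysis and regenerates NAD. It was at 426, 412, 493 and 333 CPM in control and 576, 550, 688 and 540 CPM in NOX4-deficient libraries. Every NOX4-deficient library was above every control, with means of 416 ± 65.4 and 589 ± 67.9 CPM (SD, n = 4). It rose by 41.6% (log2 fold change 0.50, SE 0.13, adjusted p = 0.0354 by edgeR). The fold change sat on the minimum set for a call, and was just under it in DESeq2 and pydeseq2, with adjusted p-values of 0.00578 and 0.00621. The edgeR call was also lost without control replicate 1, 2 or 4 or NOX4-deficient replicate 1 or 3, with adjusted p-values of 0.0726, 0.0886, 0.0878, 0.06 and 0.0926.

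The controlled steps gave no call. *Hk2*, the insulin-responsive hexokinase of muscle, was at 327, 389, 313 and 295 CPM in control and 279, 401, 302 and 421 CPM in NOX4-deficient libraries (log2 fold change 0.08, 95% interval -0.23 to 0.40). *Pfkm*, the muscle phosphofructokinase, was at 4329, 4022, 4784 and 3784 CPM and at 4432, 3845, 4462 and 3991 CPM, with a log2 fold change of -0.02 and an interval of -0.26 to 0.23. *Pkm*, encoding pyruvate kinase, was at 3004, 2584, 3242 and 2487 CPM and at 3597, 2832, 4039 and 3006 CPM, with a log2 fold change of 0.25 and an interval of -0.05 to 0.55. In all 3 the genotypes overlapped, and the upper bounds stayed under a log2 fold change of 0.5 for *Hk2* and *Pfkm* but not for *Pkm*.

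The scarce phosphofructokinase genes lay on opposite sides of 0. *Pfkl*, the liver form, was at 5.03, 4.27, 6.31 and 5.56 CPM in control and 6.62, 8.34, 6.41 and 7.68 CPM in NOX4-deficient libraries. These did not overlap, but the log2 fold change of 0.46 (SE 0.17) did not pass the test (adjusted p = 0.124 by edgeR). *Pfkp*, the platelet form, had a log2 fold change of -0.46 (SE 0.19, adjusted p = 0.169 by edgeR), with overlapping genotypes.

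*Fbp2*, the muscle fructose bisphosphatase that runs against phosphofructokinase, was at 106, 76.9, 82.0 and 75.5 CPM in control and 36.9, 34.2, 91.7 and 46.5 CPM in NOX4-deficient libraries. NOX4-deficient replicate 3 was above 3 of the 4 controls, and the other 3 were below all of them. The log2 fold change was -0.70 (SE 0.29, adjusted p = 0.185 by edgeR). Without NOX4-deficient replicate 3 it was -1.11, with an adjusted p of 0.00423 by edgeR.

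*Aldoa*, *Pygm*, *Gapdh*, *Eno3* and *Pfkm* were the most abundant transcripts of the set. *Aldoa*, encoding the muscle aldolase, was at 16255 ± 2175 CPM in control mice and at 16871 ± 3113 CPM in NOX4-deficient ones (SD, n = 4; log2 fold change 0.05). A further row named *Aldoa*, with 6918 counts over all libraries, was kept apart, so that a division of reads between the rows is possible. *Gapdh*, the triose phosphate dehydrogenase often used as a reference in quantitative PCR, was at 6504 ± 917 and 6746 ± 1129 CPM (log2 fold change 0.05). Its single libraries ran from 5436 to 8155 CPM, and both of these were NOX4-deficient. *Tpi1*, *Pgam2*, *Eno3*, *Eno1* and *Ldha*, encoding triose phosphate isomerase, the muscle phosphoglycerate mutase, 2 enolases and the lactate dehydrogenase subunit of fast fibers, had log2 fold changes of 0.26, 0.27, 0.23, 0.34 and 0.30. None of these 5 passed the test, and the smallest of their adjusted p-values by edgeR was 0.196, for *Eno1*. *Gpi1* (0.05), *Pgk1* (-0.06), *Hk1* (-0.11), *Pgam1* (-0.36), *Ldhb* (0.15) and *Aldoc* (0.17) did not pass it either. *Aldoc* rested on 5 to 33 counts a library, and its SE of 0.58 allows no statement on direction. Many of these enzymes have processed pseudogenes, and how reads shared with them were counted is not given in the sources used here.

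Per kilobase of the longest transcript, the muscle forms outweighed the other forms of the same enzyme in every library. In control muscle *Hk2* was at 60.1 CPM per kb and *Hk1* at 2.04, *Pfkm* at 1469 and *Pfkl* and *Pfkp* at 1.42 and 1.57, *Pgam2* at 1625 and *Pgam1* at 4.17. *Eno3* was at 3210 and *Eno1* at 26.2 CPM per kb, *Pygm* at 2872 and *Pygb* at 1.48, and *Ldha* at 1309 and *Ldhb* at 83.2. The log2 ratio of muscle form to other form overlapped between genotypes for all 8 pairs. The widest differences, NOX4-deficient minus control, were 0.55 for *Pgam2* to *Pgam1*, -0.47 for *Pfkm* to *Pfkl* and 0.45 for *Pfkm* to *Pfkp*, each resting on a scarce partner. *Ldhb*, the lactate dehydrogenase subunit of slow fibers and heart, varied widely among mice, at 126, 162, 75.2 and 70.8 CPM in control and 137, 78.5, 76.3 and 188 CPM in NOX4-deficient libraries. The highest *Ldhb* and the highest slow-fiber sum (1320 CPM) were in the same library, NOX4-deficient replicate 4. No ratio was tested.

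**Figure D3:**
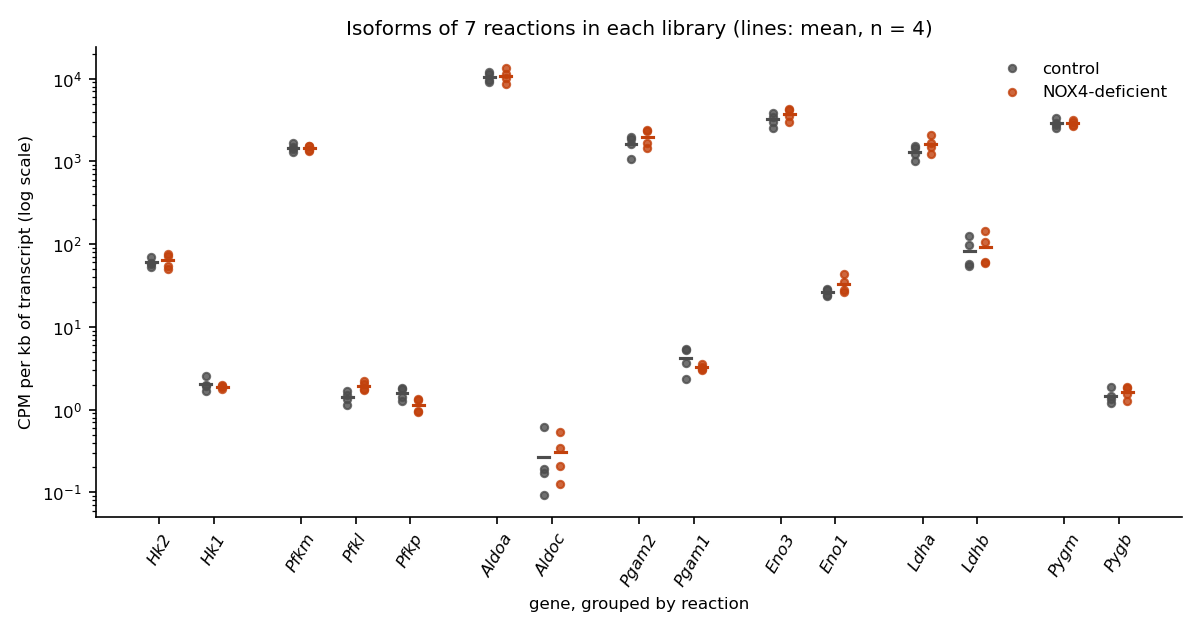
CPM per kb of transcript, on a log axis, for the muscle form and the other forms of 7 reactions in each library, with a line at the mean of each genotype (n = 4). The muscle form is the highest in every reaction, and the points of the genotypes overlap except in *Pfkl*.

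In glycogen breakdown none of 5 genes passed the test, and the median log2 fold change was 0.00. *Pygm*, the muscle glycogen phosphorylase, was at 8289, 7365, 9516 and 7843 CPM in control and 8517, 7623, 9038 and 7917 CPM in NOX4-deficient libraries. The control range enclosed that of the NOX4-deficient libraries, with a log2 fold change of 0.00 and an interval of -0.25 to 0.26. The phosphorylase kinase subunits *Phka1*, *Phkb* and *Phkg1* had log2 fold changes of -0.11, -0.15 and 0.22, and the brain phosphorylase *Pygb* one of 0.13.

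The glycogen-targeting genes gave no call in the edgeR test either. *Ppp1r3c*, encoding the subunit also named PTG, was at 1103, 848, 1080 and 1355 CPM in control and 421, 491, 774 and 978 CPM in NOX4-deficient libraries. NOX4-deficient replicates 1 to 3 were below all controls, and replicate 4 was above 1 of them. The means were 1096 ± 207 and 666 ± 258 CPM (SD, n = 4), with the lowest log2 fold change of the 37 genes (-0.72, SE 0.25, 95% interval -1.27 to -0.17, adjusted p = 0.112 by edgeR). Its adjusted p was 0.0292 in DESeq2, 0.0303 in pydeseq2 and 0.0271 by edgeR without NOX4-deficient replicate 4. *Ppp1r3d*, a scarce subunit gene with 52 to 123 counts a library, was at 3.12, 3.96, 4.12 and 5.20 CPM in control and 5.29, 6.12, 6.46 and 6.57 CPM in NOX4-deficient libraries. The genotypes came close but did not overlap (log2 fold change 0.57, SE 0.18, adjusted p = 0.0757 by edgeR). Its adjusted p was 0.048 in DESeq2, 0.0497 in pydeseq2 and 0.0466 by edgeR with odd and even replicate numbers as a term. *Ppp1r3a*, the main muscle subunit, and the glycogen-bound *Stbd1* and *Epm2a* (laforin) had log2 fold changes of -0.08, -0.07 and 0.08.

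The abundant glycolytic genes varied together among mice of the same genotype. In 12 of the 20 genes of the glycolytic steps, and in *Pygm*, replicates 1 and 3 were both above replicates 2 and 4 within both genotypes, beside 9.31% of all rows tested. The labels do not set this split of the replicates, and the comparison with all rows is a description, not a test. The 12 were *Gpi1*, *Pfkm*, *Aldoa*, *Tpi1*, *Gpd1*, *Gapdh*, *Pgk1*, *Pgam2*, *Eno1*, *Eno3*, *Pkm* and *Ldha*. None of the PFKFB, glycogen synthesis or glycogen-targeting genes had this order. The fast-fiber sum had it too, at 152368 and 180353 CPM in control replicates 1 and 3 and 147783 and 147862 CPM in 2 and 4, and at 171014 and 186225 CPM against 157639 and 166056 CPM in the NOX4-deficient mice. The labels place all 8 libraries in 1 batch, and what set these replicates apart was not tested.

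The share of all counts on the 37 genes, made up largely of the genes just named, had the same order and is not a separate result. It was 6.22, 5.42, 6.25 and 5.24% in control replicates 1 to 4 and 6.37, 5.38, 7.0 and 5.71% in NOX4-deficient replicates 1 to 4. The genotypes overlapped, and the difference of 0.332 percentage points between the means of 5.78 ± 0.528% and 6.11 ± 0.720% (SD, n = 4) was smaller than either SD. *Aldoa* alone took 1.65% of all counts, *Pygm* 0.825% and *Gapdh* 0.66%.

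**Figure D4:**
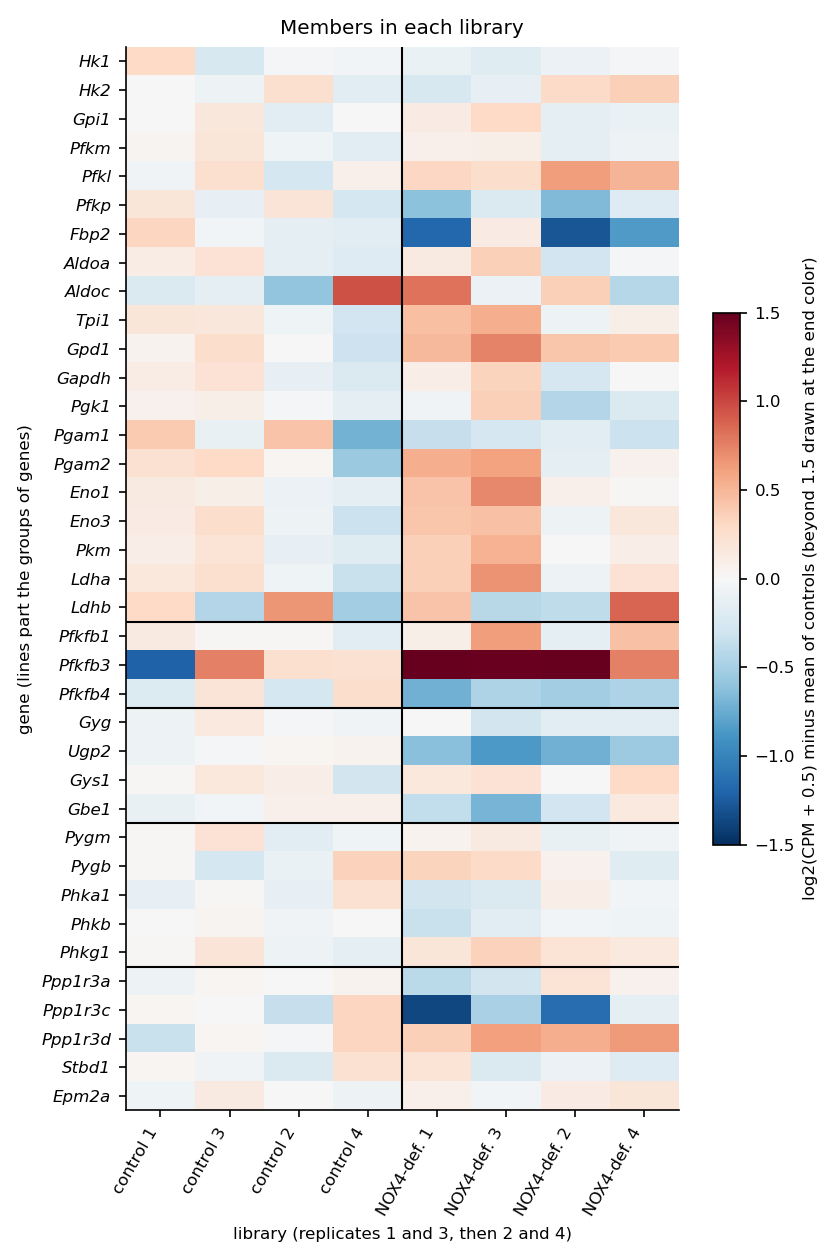
Log2(CPM + 0.5) of the 37 genes in each library minus the mean of the controls, with replicates 1 and 3 of each genotype drawn before 2 and 4 and lines between the gene groups. In 12 of the 20 genes of the glycolytic steps, replicates 1 and 3 are redder than 2 and 4 within each genotype. *Ugp2* and *Pfkfb4* are bluer in all 4 NOX4-deficient libraries.

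Of 47 further genes of these pathways (other isoforms, debranching enzyme, phosphatase subunits, kinases, lactate and pyruvate carriers), 35 were tested. *Slc16a1*, the lactate transporter MCT1, was the 1 that was called. It was at 58.2, 65.8, 52.6 and 55.6 CPM in control and 35.3, 32.8, 41.9 and 47.7 CPM in NOX4-deficient libraries, without overlap (log2 fold change -0.56, SE 0.13, adjusted p = 0.0224 by edgeR). None rose, 17 of the 35 had a negative log2 fold change, and their median was 0.03. *Gaa*, the lysosomal enzyme that degrades glycogen, had an adjusted p of 0.0479 by edgeR with a log2 fold change of -0.37, under the minimum fold for a call.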

How the data were processed

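Gastrocnemius RNA from 4 control and 4 NOX4-deficient mice was poly(A)-selected and sequenced as unstranded paired-end libraries. The authors deposited raw counts per gene, without normalization, 1 column per mouse. Per the study's methods the reads went through the nf-core RNA-seq pipeline, run in Laxy, to a matrix of feature counts. The submitters' processing notes name STAR and GRCm39, while annotation and counting settings are not given in the sources used here. The fit used edgeR 4.0.16 in R 4.3.3 (TMM, filterByExpr, robust glmQLFit, glmQLFTest, genotype as the only term), tested on simulated data drawn from these libraries. The fold and adjusted p thresholds are those of the study's methods. CPM are TMM-scaled and errors are SDs over 4 mice. Lengths came from GENCODE (GRCm38), promoters from RefSeq. No promoter entry matched *Gpd1*. Of the 32390 rows, 11715 held no count, and a repeated name stands for its row with most counts. No replicate pair agreed within sampling noise (12 pairs, chi-square over its degrees of freedom from 13.5 to 56.4). P-values measure the spread between these mice. All 37 genes could be named. Library values were given for genes called or without overlap, for *Hk2*, *Pfkm*, *Pkm*, *Gys1* and *Pygm*, and, chosen after their values were seen, for *Fbp2*, *Ppp1r3c* and *Ldhb*. The genes and lists were chosen with earlier results of these data known. Alternatives were DESeq2 1.42.0, pydeseq2 0.5.4, other normalizations, filters and thresholds, a non-robust fit, the replicate number or odd and even numbers as a term, each replicate left out, and the rows of *Aldoa* summed.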

Additional observations from a re-analysis of the deposited data

How the results depend on the processing

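Against 2 genes called lower and 1 called higher, called higher were 0 with no filter on low counts. At an adjusted p under 0.01, 0 were called higher and 1 lower. Called higher were 2 with a fit that was not robust, with odd and even replicate numbers as a term, in DESeq2 and in pydeseq2. In DESeq2 and pydeseq2, 3 were called lower, *Ppp1r3c* being the addition (adjusted p = 0.0292 and 0.0303). The 2 called higher in these were *Pfkfb3* and *Ppp1r3d*, and *Gpd1* was not called. The study itself used a Python version of DESeq2. Leaving out each replicate in turn gave 1 to 3 called lower, 0 to 1 called higher, a median log2 fold change of -0.01 to 0.10 and a share difference of 0.0356 to 0.575 percentage points. *Ugp2* was called under every setting, with log2 fold changes of -0.72 to -0.62 and adjusted p-values by edgeR of 0.00504 to 0.0104 without 1 replicate. The log2 fold change changed sign for *Pygm* with no filter (-0.0020) and for *Pfkm* with at least 10 counts in every sample (0.0039). Leaving out a replicate turned the sign of 12 genes that were not called, with ranges of -0.18 to 0.0015 for *Hk1*, -0.0040 to 0.19 for *Hk2*, -0.026 to 0.13 for *Gpi1*, -0.067 to 0.063 for *Pfkm*, -0.046 to 0.15 for *Aldoa*, -0.22 to 0.99 for *Aldoc*, -0.040 to 0.15 for *Gapdh*, -0.22 to 0.048 for *Pgk1*, -0.14 to 0.40 for *Ldhb*, -0.048 to 0.094 for *Pygm*, -0.19 to 0.025 for *Ppp1r3a* and -0.17 to 0.0070 for *Stbd1*. Over all rows, calls ran from 499 without control replicate 4 to 1017 in DESeq2, against 784. With the replicate number as a block, 933 rows and 3 genes called lower resulted, *Ppp1r3c* being the addition (log2 fold change -0.78, adjusted p = 0.0104 by edgeR). Deviations of same-numbered mice correlated at 0.22, 0.15, 0.04 and 0.04, over 0.1 in 2 of 4 pairs. Those of differently numbered mice of the 2 genotypes ran from -0.21 to 0.19. The numbers were therefore not taken as pairs. *Ppp1r3d* was called with odd and even numbers as a term (adjusted p = 0.0466 by edgeR) and in DESeq2 (0.048) and pydeseq2 (0.0497). The cause of these changes was not tested. With 4 mice in each genotype, the 95% intervals of *Tpi1*, *Pkm* and *Ldha* reached 0.60, 0.55 and 0.67 on the log2 scale, so that the minimum fold for a call lies inside them.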
